A study of Mus musculus with 14 samples.

Results

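The genes described here are 10 immediate early genes: Egr1, Egr2 and Egr3, Nr4a1, Nr4a2 and Nr4a3, Ier2, Ier3 and Ier5, and Srf. They were chosen by gene symbol, and all 10 were found among the 43472 genes of each of the 2 deposited tables. Earlier results of these data were known when they were chosen, so shares of members set beside shares of all genes are descriptions. Fibroblasts from the tail tips of C57BL/6 mice were cultured with serum, scratched as an in vitro wound, and either left without further treatment (Untreated) or given AMG (AMG-treated). AMG, for autologous micrograft, is a cell-depleted soluble extract of minced mouse skin, used diluted in the growth medium. RNA from 14 libraries was sequenced. Replicate 1 covered both arms at 1, 5, 12 and 24 h with 1 library per arm and time, and replicates 2, 3 and 4 covered both arms at 5 h only. Every library came from scratched cells in medium with serum, and unscratched cells were not analysed here. The labels call the repeats at 5 h biological, but do not say whether cultures or mice were separate or what a replicate number shares, so p-values measure only the spread between these libraries.

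Immediate early genes are transcribed within minutes of a stimulus without the need for new protein synthesis, and most of their transcripts are short-lived. Serum, growth factors and wounding switch them on through ERK and other kinases, which act on serum response factor (SRF) with its ternary complex partners and on CREB. The EGR proteins are zinc finger transcription factors, the NR4A proteins are orphan nuclear receptors, and the IER proteins are regulators of signalling, survival and growth. In skin fibroblasts, Egr1 is known as an early wound response gene that acts on growth factor and matrix genes.

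In the mouse build mm10 with the GENCODE M21 annotation, all 10 are protein-coding genes. Ier3 lies at chr17:35821684-35822923 (plus strand) and is the shortest, with 1131 exonic bases. Ier2 (chr8:84661331-84662852, minus strand) has 1522 exonic bases, and Ier5 (chr1:155096361-155099636, minus strand) has 3276. Egr1 (chr18:34859823-34864984), Egr2 (chr10:67535475-67542188) and Egr3 (chr14:70077203-70082614) are on the plus strand. Nr4a1 (chr15:101254269-101274795) and Nr4a3 (chr4:48045153-48086447) are on the plus strand, and Nr4a2 (chr2:57106830-57124003) is on the minus strand. Srf (chr17:46548329-46556175, minus strand) is the only member that overlaps other annotated genes. These are Mir6976, on the same strand and with no row in the tables, and the lincRNA Gm26904, on the opposite strand and with a mean normalised count of 0.23 at 5 h.

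Promoter windows reaching from 250 bases before to 50 bases after a start were found in the RefSeq table (GRCm38.p6) for 7 of the 10 symbols, all but Egr1, Egr3 and Ier2. Letters that known regulators of these genes bind were searched on both strands. A CArG box, the site of SRF, was found in the windows of Egr2 and Srf, against 1.63% of all 32851 windows. Members are counted by gene and the shares by window, and Egr2 has several windows. TGACG, the core of the CREB site, was found for Egr2, Nr4a1, Nr4a2, Nr4a3 and Srf, against 20.8% of windows. The EGR site GCGNGGGCG was found for Nr4a1, Nr4a2 and Srf (5.55% of windows), and an NF-kB site for Nr4a1 and Ier3 (4.51%). The full CREB palindrome TGACGTCA (1.79%), which contains TGACG, the AP-1 site TGANTCA (7.81%) and the NR4A site AAAGGTCA (1.51%) matched in 0 of the 7. A match is a description of letters only, and binding was not measured.

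The stretches upstream of the starts are printed 5′ to 3′ along the gene, cut where an annotated exon begins, so that the letters can be read beside the values of each gene. Capitals mark the NF-kB site in Ier3 (chr17:35821463-35821683, plus strand), which begins 92 bases before the start, and the CArG boxes in Srf (chr17:46556176-46556412, minus strand), at 82 and 62 bases, and in Egr2 (chr10:67537619-67537868, plus strand), at 72 bases. Egr2 has 5 listed windows, and a CArG box was matched in 4 of them. Some of these windows overlap and share the same box, so the matches are not separate sites. In the Nr4a genes, capitals mark TGACG or its reverse complement: Nr4a1 is at chr15:101266596-101266845 (plus strand), Nr4a2 at chr2:57124004-57124253 (minus strand) and Nr4a3 at chr4:48045055-48045152 (plus strand). The stretches of Egr2 and Nr4a1 lie inside the GENCODE gene spans given above, before a RefSeq start within the gene. The 3 Nr4a genes each had 4 matches in their windows, of which 3 fall in the printed stretch of Nr4a3. The share of all windows with 4 matches was not counted, and TGACG was searched as a site of a known regulator of these genes.
Ier3: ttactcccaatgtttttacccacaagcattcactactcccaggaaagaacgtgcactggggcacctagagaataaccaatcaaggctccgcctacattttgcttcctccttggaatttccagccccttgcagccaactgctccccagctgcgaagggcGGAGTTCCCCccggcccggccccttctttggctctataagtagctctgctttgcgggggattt
Srf: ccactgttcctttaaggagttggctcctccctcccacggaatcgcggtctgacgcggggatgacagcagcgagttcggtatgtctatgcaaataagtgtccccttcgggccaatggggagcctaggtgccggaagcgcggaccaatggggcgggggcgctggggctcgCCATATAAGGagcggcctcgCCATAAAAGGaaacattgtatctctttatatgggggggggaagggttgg
Egr2: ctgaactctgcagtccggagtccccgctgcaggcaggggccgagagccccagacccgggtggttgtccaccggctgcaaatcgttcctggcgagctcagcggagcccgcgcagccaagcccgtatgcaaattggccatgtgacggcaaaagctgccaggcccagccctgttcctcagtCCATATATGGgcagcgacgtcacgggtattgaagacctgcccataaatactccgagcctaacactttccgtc
Nr4a1: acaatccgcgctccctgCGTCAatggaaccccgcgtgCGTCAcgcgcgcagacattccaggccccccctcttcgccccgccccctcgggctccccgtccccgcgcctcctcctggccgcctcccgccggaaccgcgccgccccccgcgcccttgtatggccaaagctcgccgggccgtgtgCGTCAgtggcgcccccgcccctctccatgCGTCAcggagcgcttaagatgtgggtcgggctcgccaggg
Nr4a2: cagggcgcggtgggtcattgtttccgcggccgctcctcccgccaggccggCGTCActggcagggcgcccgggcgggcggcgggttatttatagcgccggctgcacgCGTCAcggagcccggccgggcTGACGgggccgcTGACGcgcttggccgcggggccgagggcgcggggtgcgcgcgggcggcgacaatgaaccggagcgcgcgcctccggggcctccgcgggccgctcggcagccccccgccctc
Nr4a3: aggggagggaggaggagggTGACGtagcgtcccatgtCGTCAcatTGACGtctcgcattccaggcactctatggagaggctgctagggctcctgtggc

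Recovered totals were 12545537 to 34696529 reads per library, so that 3 reads, taken as the floor of a library, correspond to a normalised count of 1.62 to 5.22. All 10 fibroblast markers checked were present in both arms, with summed normalised counts in replicates 2 to 4 of 485208 to 675537 without and 412102 to 533552 with AMG. The 5 skeletal muscle markers summed to 3125 to 7630 without and 1912 to 5781 with AMG. The 7 leukocyte markers summed to 164 to 1307 without and 204 to 1145 with AMG. Lyz2 had the highest mean of these and Cd3e was at 0 in every library. The 7 keratinocyte markers summed to 156 to 310.2 without and 90.2 to 149 with AMG. Of these, Krt5, Krt14 and Krt1 were at 0 in the 6 libraries. Dsp (log2 fold change −1.25, limma adjusted p = 0.0917, with the replicate number as a block 0.00144) and Trp63 (−3.07, adjusted p = 0.129, with the block 0.00377) had all treated values below all untreated ones. Krt10 went the other way with overlapping groups (log2 fold change 0.47, limma adjusted p = 0.568, with the block 0.251). The part of these markers in the results was not tested. In these bulk libraries, fewer cells of a type and less RNA per cell cannot be told apart. Library composition differed in ways that the groups alone do not describe. Ribosomal protein genes took 7.0% of the counts in Untreated 5 h replicate 1 and 5.10% in AMG-treated 1 h replicate 1, against 2.27% to 3.47% in the other 12. The slope of a gene's deviation per doubling of its length was −0.43 and −0.26 on the log2 scale in those libraries, and −0.20 and −0.19 in AMG-treated replicates 2 and 4 at 5 h. It lay between −0.010 and 0.22 in the rest, so length-corrected values are given beside the ratios they move most. The libraries of replicate 3 stood apart from those of replicates 2 and 4 in both arms, as described with the genes concerned.

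At 5 h, where 3 treated libraries were set against 3 untreated, Ier3 and Ier5 rose with AMG and no member passed the test as lower. Fold changes are on the log2(normalised count + 1) scale throughout. In the limma fit over 13096 genes, 2 of 10 members passed at an adjusted p under 0.05 with a higher level, against 0.97% of all genes tested, and 0 passed with a lower level, against 0.267%. At an unadjusted p under 0.05, 4 members passed, as did 3021 of all genes. The replicate numbers paired the libraries, and with the number as a block 4 members passed as higher (Ier2, Ier3, Ier5 and Nr4a3), against 17.9% of all genes, and 0 as lower, against 19.3%. In the same 4 genes all treated values lay above all untreated values, against 15.1% of genes, and in the other 6 the groups overlapped. The median log2 fold change of the members was 0.54, with 7 above 0 and 3 below, beside a median of −0.018 over all genes tested. Leaving out 1 library moved the calls over all genes as well. Without AMG-treated replicate 2 or 4, or without any 1 of the Untreated libraries, 0 members passed, where 1 to 41 of all genes passed as higher. Without AMG-treated replicate 3, 4 members passed, where 1146 genes (8.75%) did.

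**Figure D1:**
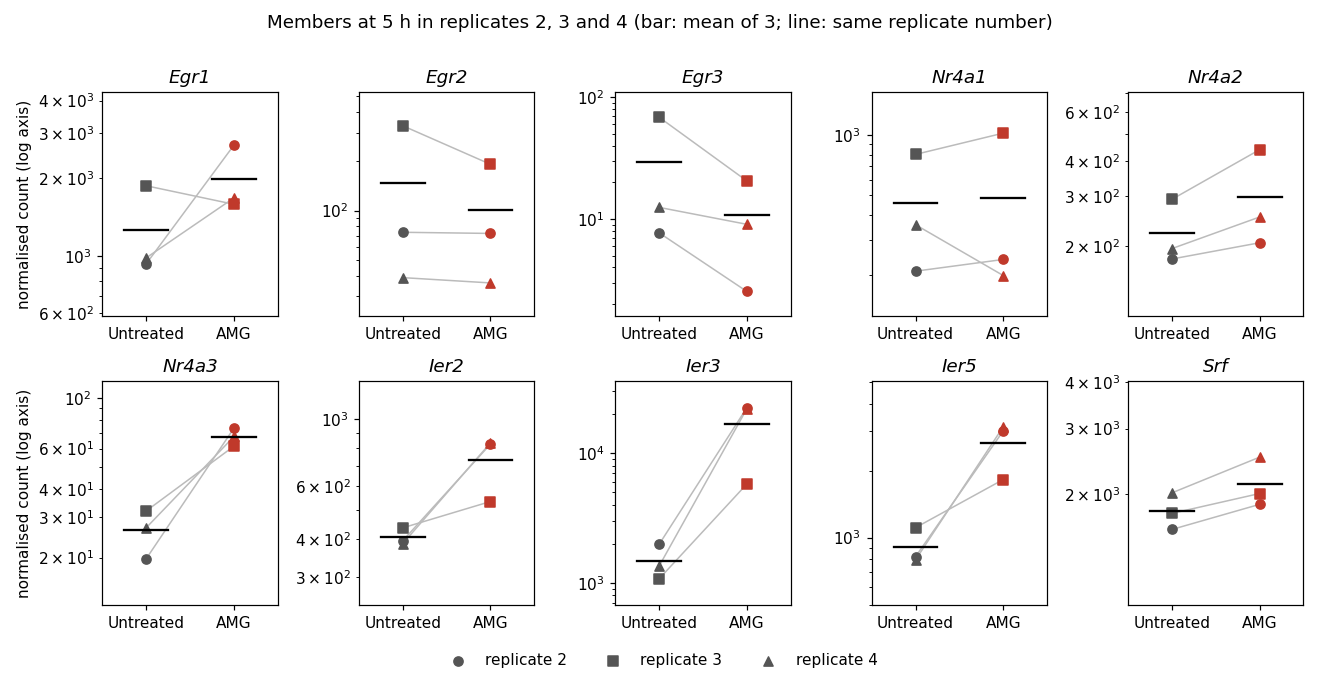
Normalised counts of the 10 genes at 5 h (log axes) in Untreated and AMG-treated libraries of replicates 2, 3 and 4, with a bar at each mean of 3 and a line joining libraries of the same replicate number. Nr4a3, Ier2, Ier3 and Ier5 show treated points wholly above the untreated ones, and replicate 3 (squares) is the highest in both arms for Egr2, Egr3, Nr4a1 and Nr4a2.

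Ier3 is an inhibitor of cell death that also acts on ERK and NF-kB signalling, and it carried the largest difference of the 10. Its normalised counts at 5 h were 1983, 1075 and 1348 in Untreated replicates 2, 3 and 4, and 22469.9, 5797 and 22067 in AMG-treated replicates 2, 3 and 4. The treated libraries were all far above the untreated ones, with replicate 3 the lowest in each arm. The mean was 1469 ± 466 (SD, n = 3) without and 16778 ± 9512 (SD, n = 3) with AMG, and the log2 fold change was 3.32 ± 0.54 (SE), a fold of 9.99 (limma adjusted p = 0.0438). With the replicate block the SE fell to 0.23 and the adjusted p to 2.46e-05. Over 21 alternative settings its adjusted p ranged from 5.46e-16 to 0.200 and passed in 14. These settings, here and for the other genes, include fits without replicate 3 in either arm, added after seeing the data. For Ier3 such fits passed, and the lowest value came from the one with the block. The lowest planned value was 8.72e-11, with DESeq2. With the correction for gene length the log2 fold change was 2.99 (adjusted p = 0.0361).

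In replicate 1, Ier3 was at 2014, 1460.4, 1543 and 2016 in Untreated libraries at 1, 5, 12 and 24 h. With AMG it was at 24270.4, 7615, 9434 and 11249 at those times. It stood higher in the treated library at each of the 4 times, and it was the member with the highest ratio at 1, 12 and 24 h, although at 1 h Egr1 was ahead after length correction (3.35). The log2 ratios of treated to untreated were 3.59, 2.38, 2.61 and 2.48, or 2.98, 2.96, 2.70 and 2.25 after length correction. Across the 4 replicate numbers at 5 h the log2 ratio was 3.09 ± 0.82 (SD, n = 4), and all 4 were above 0. The uncorrected ratio at 1 h exceeded that of all but 36 of 13498 genes, and no rank was taken after length correction. The window of Ier3 holds an NF-kB site, as does that of Nr4a1, where the match begins 3 bases before the start. The part of these sites in the levels was not tested.

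Ier5, a transcriptional regulator of the heat shock response, was the other member to pass. It was at 819, 1107 and 793 in Untreated replicates 2, 3 and 4 and at 3013, 1822 and 3146 in the AMG-treated ones. The groups did not overlap, and replicate 3 had the highest untreated and the lowest treated value. The log2 fold change was 1.53 ± 0.25 (SE), from 907 ± 174 to 2660.0 ± 729 (SD, n = 3; limma adjusted p = 0.0438, with the block 0.000927). Its adjusted p ranged from 2.25e-12 to 0.201 over 21 alternatives and passed in 13. The passing fits include those without replicate 3 in either arm, of which the one with the block gave the lowest value. The lowest planned value was 1.98e-06, with DESeq2. Replicate 1 at 5 h went the other way, with 2873 in the untreated and 2496 in the treated library, a log2 ratio of −0.20. That untreated library is the one with the high share of ribosomal protein counts, whose part in the value was not tested. At 1 h, Ier5 in replicate 1 was at 2069.8 without and 7324 with AMG (log2 ratio 1.82), and at 12 and 24 h the log2 ratios were 0.86 and 0.27.

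Ier2, a nuclear protein induced by growth factors, was at 395, 436 and 386 in Untreated replicates 2, 3 and 4 at 5 h and at 826, 533 and 834 with AMG. Its treated values were all above the untreated ones, and again replicate 3 had the narrowest gap. The log2 fold change was 0.82 ± 0.20 (SE). It missed the threshold in the fit without a block (limma adjusted p = 0.0993) and passed with it (adjusted p = 0.00531). The range over 21 alternatives was 2.74e-07 to 0.321. Its lowest value came from the fit without replicate 3 in either arm, with the block, added after seeing the data. The lowest planned value was 0.00436, with edgeR and the block. Without AMG-treated replicate 3, Ier2 passed as well (adjusted p = 0.0112). In replicate 1 it was at 677 without and 2925 with AMG at 1 h, 893 and 1464 at 5 h, 480.1 and 568 at 12 h, and 582 and 714 at 24 h. The treated library was the higher at every time, by log2 ratios of 2.11, 0.71, 0.24 and 0.29, or 1.68, 1.11, 0.30 and 0.14 after length correction.

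The Egr genes showed no call at 5 h, and their replicate 1 ratios were above 0 at 1 h and at or below 0 at 12 and 24 h. Egr1 was at 933, 1870.0 and 983 in Untreated replicates 2, 3 and 4 at 5 h, and at 2692, 1585 and 1679.5 with AMG. The groups overlapped, because replicate 3 had a high untreated value and the lowest treated value. The log2 fold change was 0.69 ± 0.32 (SE; limma adjusted p = 0.253, with the block 0.0572, range over 21 alternatives 4.30e-07 to 0.558), and 3 of 4 replicate numbers had a ratio above 0. Without replicate 3 in either arm the log2 fold change was 1.15 and passed (adjusted p = 0.0244), and it passed with length correction and the block (adjusted p = 0.0402).

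Over time in replicate 1, Egr1 crossed over. Untreated libraries were at 724, 1075, 1126 and 2685 at 1, 5, 12 and 24 h, and treated ones at 6234, 2921, 575 and 640.0. The untreated level was lowest at 1 h and highest at 24 h, and the treated level was highest at 1 h and lowest at 12 h. The log2 ratios were 3.10, 1.44, −0.97 and −2.07 (3.35, 1.18, −0.9997 and −1.97 after length correction), so that at 1 h Egr1 was 8.61-fold higher with AMG and at 24 h it was 4.20-fold lower. Each of these rests on 1 library per arm and has no replicate check.

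Egr2, which regulates myelination and lymphocyte responses and is also a serum response gene, was at 73.7, 330.0 and 38.9 in Untreated replicates 2, 3 and 4 at 5 h. With AMG it was at 72.5, 192 and 36.1. Replicate 3 was highest in both arms, and the spread between replicates exceeded the difference between arms (log2 fold change −0.30 ± 0.89 (SE), limma adjusted p = 0.865, with the block 0.323). Within each of the 4 replicate numbers the treated value was the lower, though in replicates 2 and 4 the 95% counting intervals of the log2 ratio, −0.56 to 0.51 and −0.76 to 0.51, include 0. Leaving out 1 library unbalances these pairs, and the unpaired log2 fold change was then 0.56 without Untreated replicate 3 and 0.26 without AMG-treated replicate 4. In replicate 1 it was at 446, 202, 222 and 306 without AMG, and at 2377, 111, 103 and 34.2 with AMG, at 1, 5, 12 and 24 h. The treated library was above the untreated one at 1 h and below it at each later time, with log2 ratios of 2.41, −0.86, −1.10 and −3.13. Within the treated arm its level at 24 h was 69.5 times below that at 1 h, and within the untreated arm 1.45 times below.

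Egr3 was the least counted of the 3. At 5 h it was at 7.70, 68.2 and 12.4 in Untreated replicates 2, 3 and 4 and at 2.54, 20.5 and 9.04 with AMG, where 2.54 stands for 2 reads. The groups overlapped, replicate 3 was again highest in both arms, and the log2 fold change was −1.13 ± 0.99 (SE; limma adjusted p = 0.517, with the block 0.0778). In replicate 1 at 1 h it was at 137 without and 522 with AMG (log2 ratio 1.92). At 5 h it was at 4.92 and 36.4, a log2 ratio of 2.66 with a 95% counting interval of 1.25 to 5.21, since the untreated value holds 3 reads. This ratio was opposite in sign to those of replicates 2, 3 and 4, which were −1.30 (95% counting interval −4.90 to 0.80), −1.69 and −0.42. At 12 h the arms were at 77.6 and 77.2, and at 24 h at 70.5 and 43.2 (log2 ratio −0.69). Such intervals cover counting error only, as the reads carry no molecular identifiers.

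**Figure D2:**
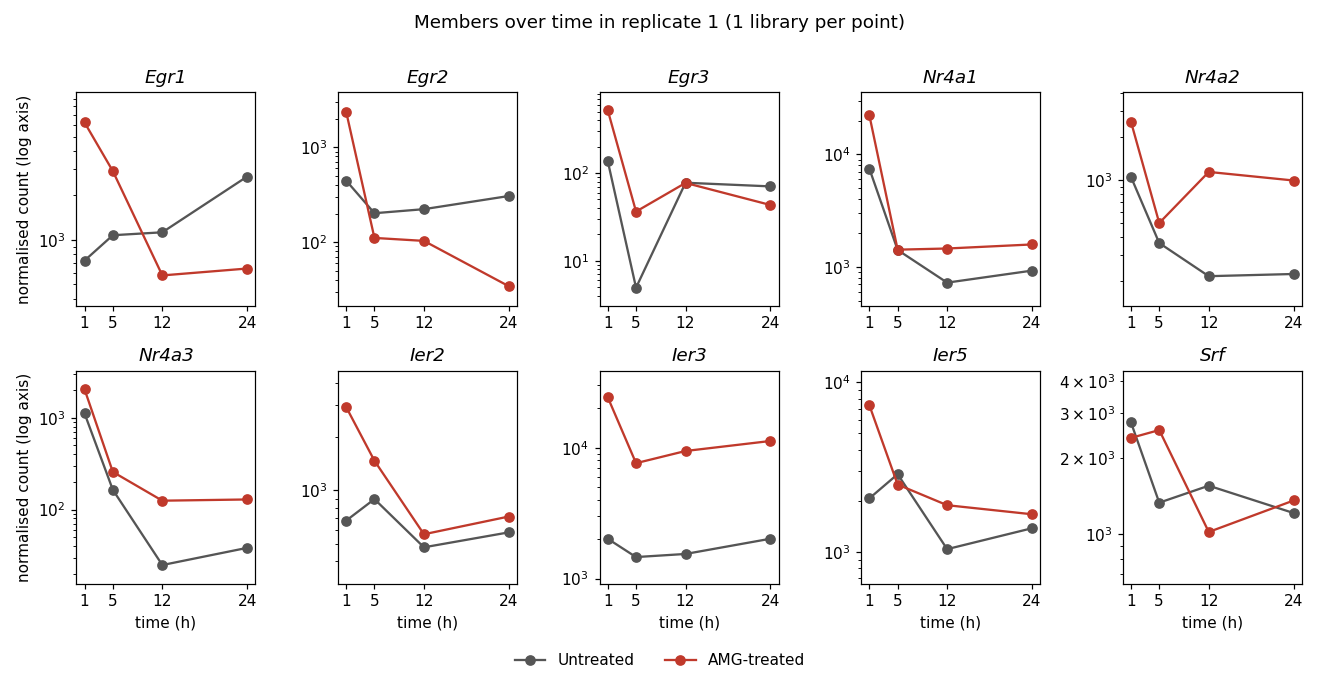
Normalised counts (log axes) of the 10 genes in replicate 1 against time in h, 1 library per point, Untreated in grey and AMG-treated in red. Ier3 stays higher with AMG from 1 to 24 h, Egr1 and Egr2 cross from higher to lower, and Nr4a2 and Nr4a3 separate again at 12 and 24 h.

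The Nr4a genes had log2 ratios above 0 at 1, 12 and 24 h in replicate 1, and the ratios of Nr4a2 and Nr4a3 were larger at 12 and 24 h than at 1 or 5 h. Nr4a3 was the member of this family whose groups did not overlap at 5 h. It was at 19.8, 32.03 and 27.0 in Untreated replicates 2, 3 and 4 and at 73.8, 61.5 and 67.8 with AMG. All treated values were above all untreated ones. The log2 fold change was 1.35 ± 0.31 (SE), from 26.3 ± 6.15 to 67.7 ± 6.15 (SD, n = 3). It missed the threshold without a block (limma adjusted p = 0.0865) and passed with it (adjusted p = 0.00732). Over 20 alternatives the adjusted p ranged from 0.000712 to 0.293. The lowest came from the fit without replicate 3 in either arm, with the block, added after seeing the data. The lowest planned value was 0.00429, with length correction and the block. Without AMG-treated replicate 3, Nr4a3 passed as well (adjusted p = 0.0456).

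In replicate 1, Nr4a3 was highest at 1 h and lowest at 12 h in both arms. Untreated libraries were at 1113, 164, 24.9 and 38.3 at 1, 5, 12 and 24 h, and AMG-treated ones at 2036, 257, 125 and 129. The untreated level at 12 h was 44.7 times below that at 1 h, and the treated level 16.3 times below. The log2 ratios were 0.87, 0.64, 2.28 and 1.72. Nr4a3 has the most exonic bases of the members, 5720, and after length correction the ratios were 1.27, 0.23, 2.23 and 1.88.

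Nr4a2 was at 179, 292 and 195 in Untreated replicates 2, 3 and 4 at 5 h and at 205, 439 and 253 with AMG. The groups overlapped, and within each replicate number the treated value was the higher (log2 fold change 0.38 ± 0.33 (SE), limma adjusted p = 0.512, with the block 0.0684). Over 21 alternatives its adjusted p ranged from 0.0346, with length correction and the block, to 0.876, and it passed only at the lowest of these. In replicate 1 it was at 1053, 366, 215 and 223 without AMG and at 2544, 504, 1139.8 and 994 with AMG. The treated level went down from 1 to 5 h and was higher again at 12 h, while the untreated level was lowest at 12 h. The log2 ratios were 1.27, 0.46, 2.40 and 2.15.

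Nr4a1, the best known of these receptors and a regulator of cell survival and inflammation, was at 209, 802 and 357 in Untreated replicates 2, 3 and 4 at 5 h and at 239, 1025 and 199 with AMG. Replicate 3 was highest in both arms and the groups overlapped (log2 fold change −0.10 ± 0.72 (SE), limma adjusted p = 0.9503, with the block 0.742). Its sign turned with edgeR and DESeq2 on recovered reads (0.11 and 0.099) and without Untreated replicate 3 (0.42), AMG-treated replicate 2 (0.21) or AMG-treated replicate 4 (0.34). In replicate 1 it was at 7479 without and 22307 with AMG at 1 h, 1413 and 1422 at 5 h, 724 and 1456 at 12 h, and 926 and 1582 at 24 h. From 1 to 5 h its level went down 5.29 times in the untreated arm and 15.7 times in the treated arm, to almost the same value. The log2 ratios were 1.58, 0.01, 1.01 and 0.77, and the one at 5 h was −0.02 after upper quartile rescaling.

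Srf encodes the factor that binds CArG boxes and drives many of the other genes. It was at 1606, 1774 and 2015 in Untreated replicates 2, 3 and 4 at 5 h and at 1877, 2007 and 2514 with AMG. The groups overlapped, and the treated value was the higher within each replicate number. The log2 fold change was 0.24 ± 0.16 (SE; limma adjusted p = 0.383, with the block 0.0588, range over 21 alternatives 0.0121 to 0.757). Only the lowest of these passed, from the fit without replicate 3 in either arm, with the block, added after seeing the data. The lowest planned value was 0.0545, with edgeR and the block. In replicate 1, Srf was at 2761, 1333, 1554 and 1213 without AMG and at 2398, 2575, 1022 and 1359 with AMG. It was the only member with a log2 ratio below 0 at 1 h, at −0.20, and its other ratios were 0.95, −0.61 and 0.16. Its levels spanned a narrow range over all libraries of replicate 1, from 1022 to 2761.

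Across the members in replicate 1, 8 of 10 were over 2-fold higher with AMG at 1 h and 0 were over 2-fold lower, against 11.3% and 10.7% of 13498 genes. At 5 h the members were 3 and 0 (13.3% and 12.6% of genes), at 12 h 4 and 1 (5.93% and 6.9%), and at 24 h 3 and 2 (6.05% and 8.05%). The median log2 ratio of the members was 1.87, 0.68, 0.55 and 0.28 at the 4 times, beside −0.064, −0.0050, −0.0099 and 0.017 over all genes. After length correction the members' medians were 1.78, 0.66, 0.58 and 0.22. These are single libraries per arm and time, and no test was made.

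**Figure D3:**
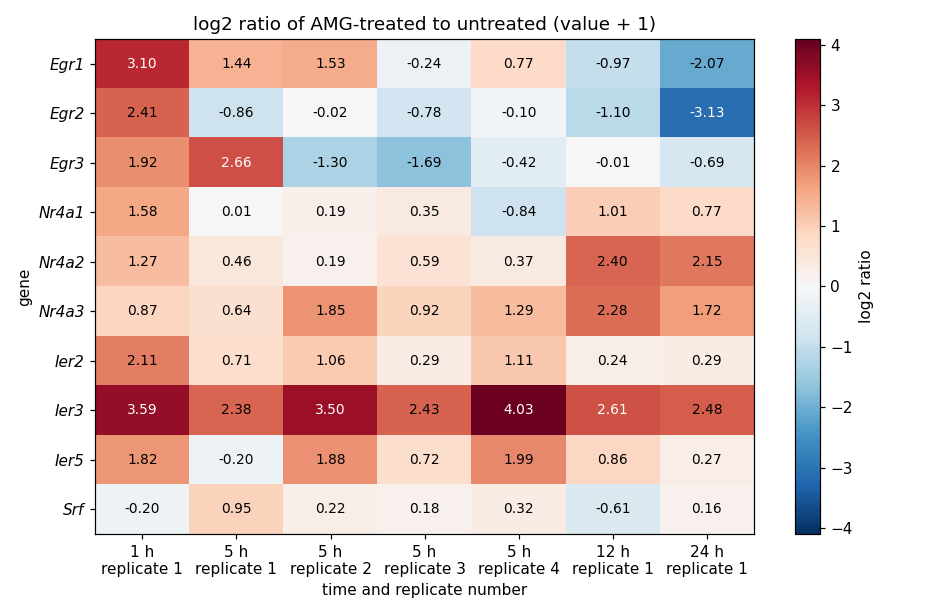
Log2 ratios of AMG-treated to Untreated (normalised count + 1) for the 10 genes (rows) in each replicate number and time (columns), red above 0 and blue below. Ier2, Ier3, Nr4a2 and Nr4a3 are above 0 in all 7 columns, and at 24 h Egr1 and Egr2 stand at −2.07 and −3.13.

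Replicate 3 differed from replicates 2 and 4 in the same direction in both arms for part of the group. Egr2, Egr3 and Nr4a1 were over 2-fold above the mean of the other 2 replicates in both arms, which is 3 of 10 members, against 4.25% of all genes tested. The log2 differences were 2.599 untreated and 1.88 treated for Egr2, 2.68 and 1.85 for Egr3, and 1.55 and 2.23 for Nr4a1. Ier3 was below the other 2 replicates in both arms, by −0.60 and −1.94 on the log2 scale. Without replicate 3 in either arm, a choice made after seeing the data, 5 members passed as higher, against 11.1% of genes. What replicate 3 shares was not given in the labels.

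Per kilobase of exon, which allows levels of different genes to be compared, Ier3 had the highest level in both arms at 5 h. In Untreated libraries of replicates 2 to 4 the mean normalised count per kilobase was 1299 for Ier3 (range 950 to 1754), and next came Srf at 687 (614 to 770). These ranges did not overlap, and Srf was also clear of Egr1 at 281 (208 to 417). Below it each gene overlapped in range over the 3 libraries with its neighbours in the order Egr1, Ier5 at 277, Ier2 at 267, Nr4a1 at 170 (78.0 to 299), Nr4a2 at 59.4 (47.9 to 78.1), Egr2 at 46.3, Egr3 at 7.18 and Nr4a3 at 4.60. Within each of the 3 libraries, however, Nr4a1 was above Nr4a2 and Egr2 was above Egr3. With AMG, Ier3 was at 14835 (5125 to 19867) and Srf at 815 (717 to 961), which overlapped with Ier5 at 812 (556 to 960.2). Ier5 was above the range of Ier2 at 480.1 (350.1 to 548), which overlapped with Egr1 at 443, and the order then ran through Nr4a1, Nr4a2 and Egr2 with overlapping neighbours. The lowest 2 exchanged places, with Nr4a3 at 11.8 (10.7 to 12.9) and Egr3 at 2.61 (0.620 to 4.99), and there the ranges did not overlap.

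Other immediate early genes were counted in the same way, from a list of 32 that includes Fos and Jun family genes, phosphatases and Klf factors. At 5 h, 4 of 32 passed as higher (0.97% of all genes) and 0 as lower (0.267%), with a median log2 fold change of 0.62. With the block 18 passed as higher (17.9% of all genes) and 1 as lower (19.3%), which was Fos, named after its values were seen (log2 fold change −1.33). The 4 were Nfkbiz, an atypical IkB protein that regulates NF-kB target genes (log2 fold change 3.03, limma adjusted p = 0.00567), Errfi1, a feedback inhibitor of the EGF receptor (2.44, adjusted p = 0.0438), Trib1, a pseudokinase (1.23, adjusted p = 0.0335), and Myc (0.78, adjusted p = 0.0375). In replicate 1 at 1 h, 21 of the 32 were over 2-fold higher (11.3% of all genes) and 0 were over 2-fold lower (10.7%), with a median log2 ratio of 1.17. At 5, 12 and 24 h the counts over 2-fold higher were 9, 4 and 3 (13.3%, 5.93% and 6.05% of all genes), and those over 2-fold lower were 0, 3 and 1 (12.6%, 6.9% and 8.05%). The medians at those times were 0.25, 0.21 and 0.17.

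**Figure D4:**
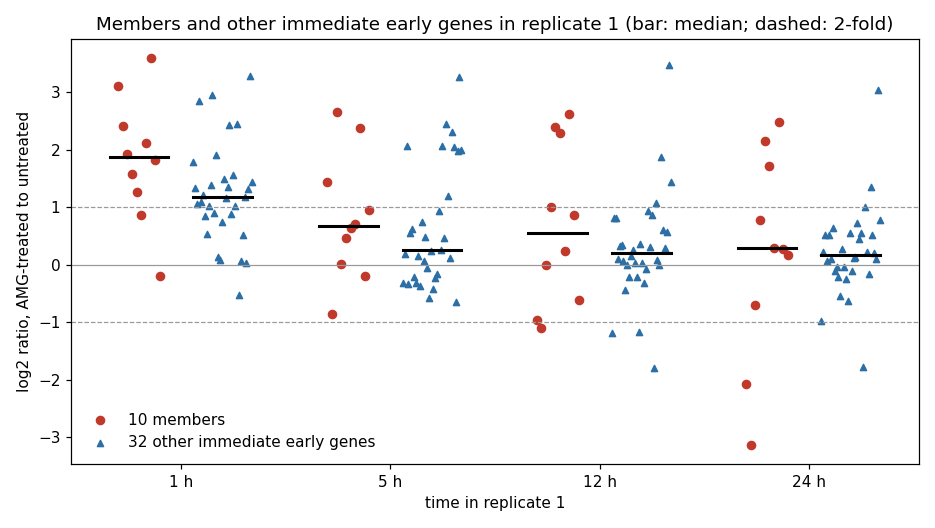
Log2 ratios of AMG-treated to Untreated in replicate 1 at 1, 5, 12 and 24 h for the 10 genes (red circles) and the 32 other immediate early genes (blue triangles), with a bar at each median and dashed lines at 2-fold. At 1 h the medians are 1.87 and 1.17, and at 24 h 0.28 and 0.17.

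The partners of these factors showed 0 calls at 5 h in the fit without a block. The counts with the block stand beside 17.9% of all genes passing as higher and 19.3% as lower. Of 6 SRF cofactors, Elk3 and Elk4, which are ternary complex factors, passed as higher with the block (log2 fold change 0.48, limma adjusted p = 0.00423, and 0.67, adjusted p = 0.0240). Elk1 (−0.50, adjusted p = 0.0189) and the myocardin-related factors Mkl1 (−0.34, adjusted p = 0.0135) and Mkl2 (−0.57, adjusted p = 0.0140) passed as lower with it. Myocd passed in neither fit (−1.27, adjusted p = 0.402 without and 0.0608 with the block). Without the block the adjusted p of these 6 lay between 0.128 and 0.464. Among 4 corepressors and coactivators of the EGR proteins, all with a log2 fold change below 0, Nab2 (−0.83, adjusted p = 0.184, with the block 0.00652) and Ep300 (−0.51, adjusted p = 0.275, with the block 0.0119) passed only with the block. Nab1 was at −0.28 (adjusted p = 0.233, with the block 0.0603) and Crebbp at −0.15 (adjusted p = 0.565, with the block 0.334). Of 11 upstream kinases and CREB family genes, 0 passed without the block, and with it 4 passed as higher (Map2k2, Rps6ka4, Atf1 and Crem) and 2 as lower (Rps6ka1 and Rps6ka5), all named after their values were seen. Crem, a CREB family member, was at 0.99 (adjusted p = 0.0783, with the block 0.00152). Of 3 retinoid X receptors that pair with NR4A proteins, 2 were tested, and Rxra passed as lower with the block (−0.43, adjusted p = 0.317, with the block 0.0161). Of 3 relatives of the members only Ier5l had a mean of at least 10 at 5 h, with a log2 fold change of −0.997 (adjusted p = 0.179, with the block 0.00651).

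Genes with the most similar course over the 8 libraries of replicate 1 were found by the root mean square difference of centred log2 values, among 13497 other genes. For Egr1 these were Icam1 (0.55), Gm15950 (0.59) and 1810014B01Rik (0.66), where the median gene stood at 1.24. Icam1 had log2 ratios of −0.27 and −0.36 at 12 and 24 h, where Egr1 had −0.97 and −2.07. The genes closest to Nr4a1 were Fosb (0.30), Atf3 (0.39) and Csrnp1 (0.41), with the median gene at 1.63. Those closest to Ier3 were Nod2 (0.39), Nfkbiz (0.40) and Rffl (0.41), with the median gene at 1.53. The 8 libraries differ in depth and composition, which all genes share, so the measure is a description. Among the members the closest pair was Ier2 and Ier5 (0.31), and the next was Ier2 and Srf (0.65).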

How the data were processed

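Polyadenylated RNA was made into TruSeq Stranded mRNA libraries and sequenced as single-end reads. Per the submitters' processing notes and the methods of the study, reads were checked with FastQC 0.11.5, aligned to mm10 with TopHat2 2.0.13, handled with SAMtools 0.1.19.24 and counted per gene with HTSeq 0.5.3p3. Which annotation release was used, and whether counting used strand, is not given in the sources used here. Deposited values are normalised signal: the authors divided each library's read counts by its size factor with DESeq, separately for the 8 libraries of replicate 1 and the 6 libraries of replicates 2 to 4. Levels were therefore compared only within a table. 0 columns of samples were left unused, and 0 rows named no gene.

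In each library, low values were whole multiples of 1 step, and 100% of the values gave whole reads within a tolerance of 0.1. The main test was limma 3.58.1 (R 4.3.3, eBayes with trend) on log2(value + 1) at 5 h, 3 against 3, over 13096 genes with a mean of at least 10, with Benjamini-Hochberg adjustment. On the recovered counts, edgeR 4.0.16 called 107 genes higher and 28 lower, and DESeq2 1.42.0 called 854 and 580. The replicate numbers paired the libraries: deviations from the group mean correlated across genes with r = 0.65, 0.76 and 0.70 within a number and with −0.59 to 0.12 between numbers. As the deviations of a gene sum to 0 within an arm, the values between numbers are not independent of those within a number. Replicate 1 has 1 library per arm and time, so its log2 ratios have no p-value. The scripts were tested on simulated data.

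Alternatives were other pseudocounts and filters, the block, limma without trend, upper quartile rescaling, count tests, edgeR on 4 replicates, a correction for gene length and leaving out each library. Leaving out replicate 3 in both arms was added after seeing the data. The members and gene lists were chosen with earlier results of these data known. Named genes are all members, list genes that passed at 5 h, SRF cofactors, EGR corepressors and coactivators, and the 3 genes most like Egr1, Nr4a1 and Ier3. Exon lengths and positions came from GENCODE M21 and promoters from RefSeq (GRCm38.p6).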

Additional observations from a re-analysis of the deposited data

Results flagged for a closer look

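In 2 genes the difference between arms had one sign in every library pair at 5 h and the opposite sign at another time of replicate 1. For Egr2 the log2 ratio with AMG to without was 2.41 at 1 h, while all 4 ratios at 5 h were below 0 (mean −0.44), with counting intervals that include 0 in replicates 2 and 4. For Srf all 4 ratios at 5 h were above 0 (mean 0.42), while the ratio was −0.20 at 1 h and −0.61 at 12 h. In each case the difference between times was not tested, since 1 and 12 h have 1 library per arm. A search for a replicate far from the other 3 among the 5 h ratios of the 10 genes found 0. With 4 values per gene such a search finds only very wide gaps, so it does not show that the replicates agreed. Egr3, for instance, was not flagged with 2.66 in replicate 1 and −1.30, −1.69 and −0.42 in replicates 2, 3 and 4.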

How the results depend on the processing

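At 5 h, 2 members passed as higher among 127 higher and 35 lower genes. The count of members and the counts over all genes (higher and lower) were 4 among 2345 and 2527 with the replicate block, 0 among 56 and 24 without the trend, 0 among 95 and 37 after upper quartile rescaling, 4 among 854 and 580 with DESeq2, 4 among 2416 and 2436 with edgeR and the replicate block, 1 among 326 and 169 with edgeR on 4 replicates and the block, and 6 among 2151 and 2011 with length correction and the block (141 and 31 genes without it). After upper quartile rescaling the adjusted p of Ier3 was 0.0516 and that of Ier5 0.0511. Without 1 library at a time it was 0 to 4 among 1 to 1146 and 0 to 1054 genes, and without replicate 3 in either arm, added after seeing the data, 5 among 1454 and 1328, or 6 among 3269 and 3531 with the block. The median of 0.54 became 0.38 to 0.73 without 1 library, the highest without Untreated replicate 3. No setting gave a member that passed as lower. Egr2 (−0.30, from −0.96 to 0.56 without 1 library) reversed to 0.56 without Untreated replicate 3 and 0.26 without AMG-treated replicate 4. Nr4a1 (−0.10, from −0.84 to 0.42 without 1 library) reversed to 0.11 with edgeR, 0.099 with DESeq2, 0.42 without Untreated replicate 3, 0.21 without AMG-treated replicate 2 and 0.34 without AMG-treated replicate 4. In replicate 1, 5 members instead of 3 were over 2-fold higher at 5 h after length correction, and 2 instead of 1 over 2-fold lower at 12 h after upper quartile rescaling. The members added at 5 h, Ier2 and Srf, stood at corrected log2 ratios of 1.11 and 1.01. The shares of all genes past 2-fold under these settings are not given here, so these counts cannot be set beside them. On uncorrected values of 3 replicates, the replicate block with edgeR or limma turned the calls of Ier2 and Nr4a3 and no other member's, and on length-corrected values also those of Egr1 and Nr4a2. The causes were not tested. With 3 reads as the floor, depth limits Egr3 most.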
